A study of Mus musculus with 8 samples.

Results

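The genes described here encode secreted proteins that organise synapses: the cerebellins Cbln1, Cbln2 and Cbln4, the neuronal pentraxins Nptx1 and Nptx2 with the pentraxin receptor Nptxr, and the C1q-like proteins C1ql1, C1ql2 and C1ql3. They were named as a family list and found on the array by gene name. Spots carrying the name of 8 of the 9 genes were present, with 10 probes in all, and 7 of the 9 passed the filter on dim probes, among 27418 gene names tested. Nptxr had no spot of its own name. It is described through 2 probes named Npcd, a name that RefSeq lists as a synonym of Nptxr, and is not counted among the 8. The list was drawn up with these signals already known, so the values of its members are given as a description, with no p-value. How many passed the threshold of the fit over all genes is stated beside the share of all genes that did. In how many alternative fits a call held is given too, and nothing is read from either.

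The study profiled neurons of 3 neighbouring hypothalamic nuclei, the arcuate nucleus (Arc), the ventromedial hypothalamus (VMH) and the dorsomedial hypothalamus (DMH), on 8 one-colour Agilent arrays. Arc had 2 samples, VMH 3 and DMH 3, all from female mice aged 2 months. Every sample, in all 3 groups, came from Nkx2-1-CreERT2 mice carrying a Rosa-ZsGreen reporter and treated with tamoxifen, and there was no other genotype or untreated group. The reporter marks cells in which the Nkx2-1 driver had been active, and the pools are not purely such cells by their markers, as described further on. Green fluorescent neurons were cut out by laser and pooled. The animals and cells behind each pool, and the time since tamoxifen, are not given in the sources used here. The p-values below rest on the scatter among these pools, part of which may be technical.

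Cerebellins, C1q-like proteins and neuronal pentraxins work outside the cell. Cerebellins bridge the synaptic cleft by binding neurexins on the axon terminal and glutamate receptor-like proteins on the receiving side. C1q-like proteins bind the adhesion receptor Adgrb3 and, in some circuits, neurexin 3 and kainate receptors. Neuronal pentraxins gather AMPA-type glutamate receptors, and Nptx2, also called Narp, is made in response to neuronal activity. In the hypothalamus these nuclei control feeding, energy use and reproductive behaviour, and much of the VMH output is glutamatergic.

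Levels are log2 of the processed spot signal minus the 75th percentile of that array, so 0 is the array's upper quartile and a difference of 1 is a doubling. A level belongs to its probe, and levels of different probes are not compared. A spot was counted as measured where it was well above the local background by the scanner software's flag. Differences carry the standard error (SE) of a linear model over all 8 arrays (limma). Where an array of the dimmer side was not above background, its signal was raised to the lowest one above background, and the fold is written as "at least". The samples are pools, and fewer cells making a transcript and less transcript per cell cannot be told apart.

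The 75th percentile of the arrays lay between 1806 and 3042 signal units, and 72.4% to 78.7% of the probes were above background. Correlations were taken over the brightest probe of each of 27323 gene names that passed the filter and had complete values. Arrays of the same nucleus correlated at 0.940 to 0.964 and arrays of different nuclei at 0.905 to 0.951. Nkx2-1 itself was measured on every array, with a level of 0.20 ± 0.20 (SD, n = 2) in Arc, 1.12 ± 0.06 (SD, n = 3) in VMH and 1.21 ± 0.08 (SD, n = 3) in DMH. All 8 listed neuronal markers were above background on every array. Marker lists of the nuclei followed the labels, with 8 of 9 Arc markers, 7 of 7 VMH markers and 7 of 7 DMH markers called higher in their own nucleus (lists chosen with these results known). Markers of other cells were present too. The summed linear level, in units of the array's 75th percentile, of 9 microglial markers was 212 to 243 in Arc, 159 to 188 in VMH and 112 to 150 in DMH, and that of 6 tanycyte and ependymal markers was 3.85 to 4.46, 2.19 to 2.70 and 0.975 to 1.34. Summed levels of 10 astrocyte markers were 52.5 to 59.8, 55.1 to 68.0 and 49.0 to 60.0 in the same order, and those of 11 oligodendrocyte lineage markers 10.3 to 18.6, 19.7 to 29.7 and 15.3 to 21.3. Gja1 was above background on no array of Arc or VMH, and Mog on none of Arc. Of the 6 endothelial markers the sum was 4.14 to 4.48 in Arc, 3.25 to 3.60 in VMH and 2.67 to 3.52 in DMH. Microglial, tanycyte and endothelial sums were therefore highest in Arc, and their part in the low levels of members in Arc was not tested.

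Cbln1 was the member with the widest range. Its transcript, which encodes the cerebellin known from cerebellar parallel fibre synapses, was abundant in VMH and low elsewhere. Its brighter probe (mm9, chr8:89992776-89992835) read 2.57, 2.24 and 2.54 on the VMH arrays, -1.68, -1.54 and -2.53 on the DMH arrays, and -3.51 and -4.11 on the Arc arrays. The nuclei did not overlap: VMH stood highest, DMH between and Arc lowest, where the probe was above background on 1 of 2 arrays. Means were 2.45 ± 0.18 (SD, n = 3) in VMH, -1.92 ± 0.54 (SD, n = 3) in DMH and -3.81 ± 0.42 (SD, n = 2) in Arc. VMH lay above DMH by 4.37 (SE 0.31), a 20.7-fold difference, and above Arc by 6.26 (SE 0.35), at least 75.2-fold.

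Cbln1 had a further probe, and the pair is shown because they order the lower nuclei differently. Of each 60-base probe the first 30 bases are given as deposited, with no base marked:
Cbln1, brighter probe: cgtccagaagttttgattgtaccgaaacat
Cbln1, other probe: tttcagtctcaccgggagaggggccttatg
The other probe (mm9, chr8:89992304-89992363) read 1.02, 0.75 and 1.77 in VMH, -2.65 and -6.05 in Arc, and -6.72, -6.40 and -3.21 in DMH. VMH was again above every other array. It was above background on 1 of 2 Arc arrays and 1 of 3 DMH arrays, so Arc and DMH, which differed by -1.10 (DMH minus Arc) against 1.89 (SE 0.35) on the brighter probe, are not ordered by both probes. The exon or untranslated region that each probe falls in was not worked out here.

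**Figure D1:**
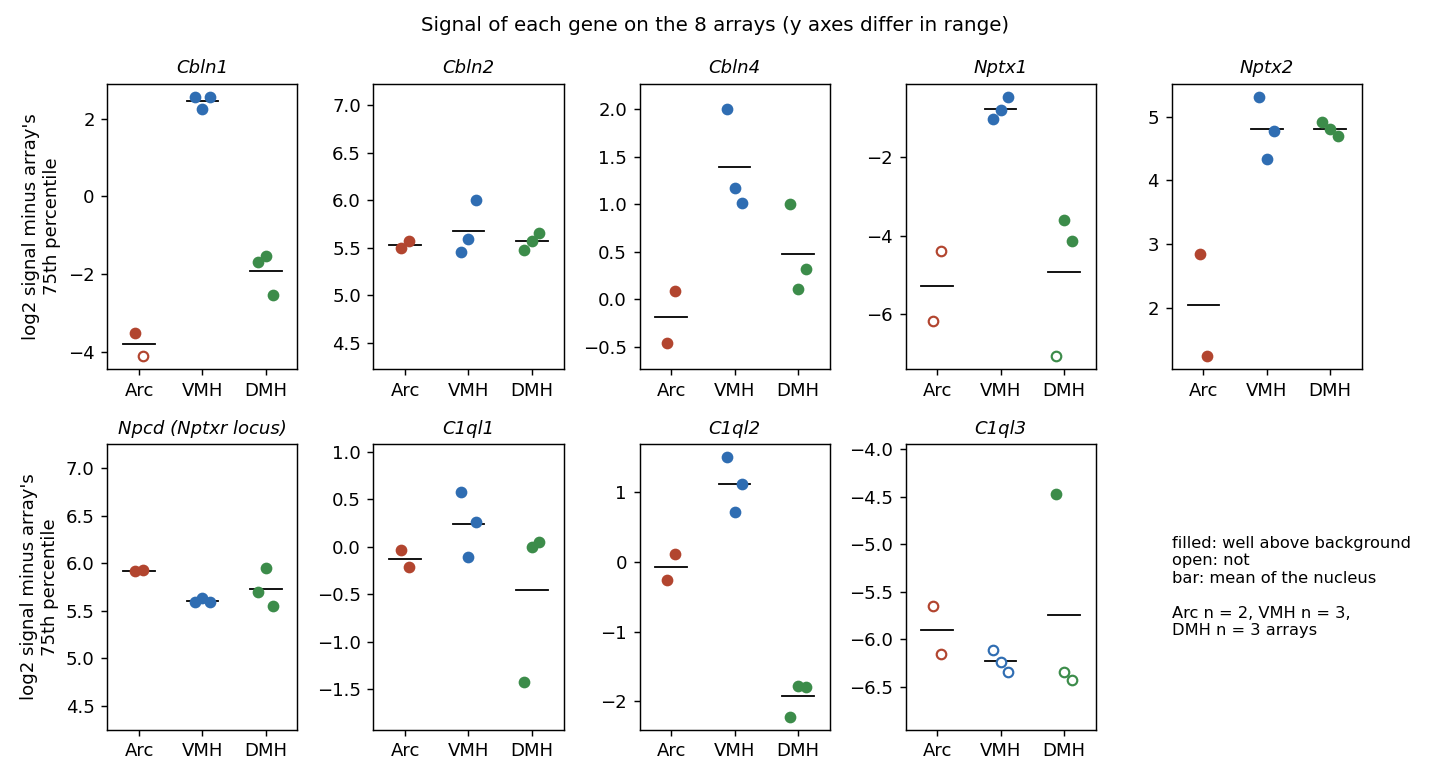
Level of each gene on the 8 arrays, as log2 signal minus the array's 75th percentile, by nucleus; points are arrays (filled where well above background), bars are means of the 2 Arc, 3 VMH or 3 DMH arrays, and y axes differ. Cbln1, Nptx1 and C1ql2 stand highest in VMH without overlap, Nptx2 is low on both Arc arrays, and Cbln2 lies between 5.45 and 5.998 on all 8.

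Cbln2 was flat. This cerebellin binds the same partners as Cbln1, and its probe (mm9, chr18:86886865-86886924) read 5.49 and 5.57 in Arc, 5.45, 5.59 and 5.998 in VMH, and 5.47, 5.57 and 5.66 in DMH. The 3 nuclei overlapped and every array was above background, with no saturated spot. VMH minus Arc was 0.15 (SE 0.23), VMH minus DMH 0.11 (SE 0.20) and DMH minus Arc 0.04 (SE 0.23), so no order of the nuclei can be given beyond their spread.

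Cbln4, a cerebellin that also binds the netrin receptors Dcc and Neo1, shared the VMH end of the Cbln1 pattern at a smaller size. Its probe (mm9, chr2:171862336-171862395) read 2.00, 1.17 and 1.01 in VMH, 1.01, 0.11 and 0.32 in DMH, and -0.46 and 0.09 in Arc. The nuclei were ordered VMH, DMH and Arc with no overlap, but the neighbours only just parted: the lowest VMH array read 1.010 and the highest DMH array 1.006. VMH minus Arc was 1.58 (SE 0.39), a 2.98-fold difference, and VMH minus DMH 0.91 (SE 0.35), which was 0.61 without VMH replicate 1 and 1.18 without DMH replicate 1.

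Among the pentraxins, Nptx1 was measured on every VMH array, on part of the DMH arrays and on no Arc array. Nptx1, a secreted pentraxin found at excitatory synapses, had 1 probe (mm9, chr11:119400976-119401035), which read -1.04, -0.80 and -0.46 in VMH, -7.07, -3.61 and -4.13 in DMH, and -6.17 and -4.40 in Arc. All VMH arrays lay above all others, and Arc and DMH overlapped. The probe was above background on 3 of 3 VMH arrays, 2 of 3 DMH arrays and 0 of 2 Arc arrays, so it passed the filter through VMH alone and could only appear as high there. VMH was at least 9.47-fold above Arc and at least 10.7-fold above DMH. The measured difference of VMH from the mean of the others, 4.34 (SE 0.79), rests on these dim spots.

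Nptx2 had another pattern, low in Arc and level between VMH and DMH. Its brighter probe (mm9, chr5:145317727-145317786) read 2.84 and 1.25 in Arc, 5.31, 4.34 and 4.77 in VMH, and 4.91, 4.81 and 4.69 in DMH. Both Arc arrays lay below the rest, although they stood well apart from each other, and VMH and DMH overlapped. VMH minus Arc was 2.76 (SE 0.47) and DMH minus Arc 2.76 (SE 0.47), or 6.78-fold and 6.76-fold, while VMH minus DMH was 0.00 (SE 0.42). The difference of Arc from the mean of the others was -2.76 (SE 0.42), and it was -3.56 without Arc replicate 1 and -1.96 without Arc replicate 2.

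The further Nptx2 probe gave the same order for Arc. The first 30 bases of both are shown because they are separate reads of the gene whose pattern differs from the VMH-high members:
Nptx2, brighter probe: tcatgtgcactttccgtctgagggaactgc
Nptx2, other probe: catctggtgccaaaagttcatttgcagctt
The other probe (mm9, chr5:145317905-145317964) read 0.43 and -0.56 in Arc, 2.33, 2.30 and 2.42 in VMH, and 1.39, 2.30 and 2.10 in DMH. Arc was again below all other arrays, by 2.41 against VMH and 1.99 against DMH, and VMH minus DMH was 0.42.

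Nptxr, the membrane-bound pentraxin that joins Nptx1 and Nptx2 in mixed complexes, could be followed only through the Npcd probes, which cannot tell Npcd and Nptxr transcripts apart. Their first 30 bases are shown because the 2 probes disagree about the nuclei:
Npcd, brighter probe: tgtatgtgtgagtgcgtgtgtgatctgtgc
Npcd, other probe: ataagctggtagaggcctttggaggtgcga
The brighter one (mm9, chr15:79616822-79616881) read 5.92 and 5.93 in Arc, 5.59, 5.63 and 5.59 in VMH, and 5.70, 5.95 and 5.55 in DMH, a nearly level pattern with VMH minus Arc at -0.32 (SE 0.20). The other (mm9, chr15:79620136-79620195) read 2.40 and 2.97 in Arc, 1.66, 1.38 and 0.56 in VMH, and 1.95, 2.41 and 1.92 in DMH. On that probe all VMH arrays lay below all others, by 1.49 against Arc and 0.89 against DMH in the means.

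**Figure D2:**
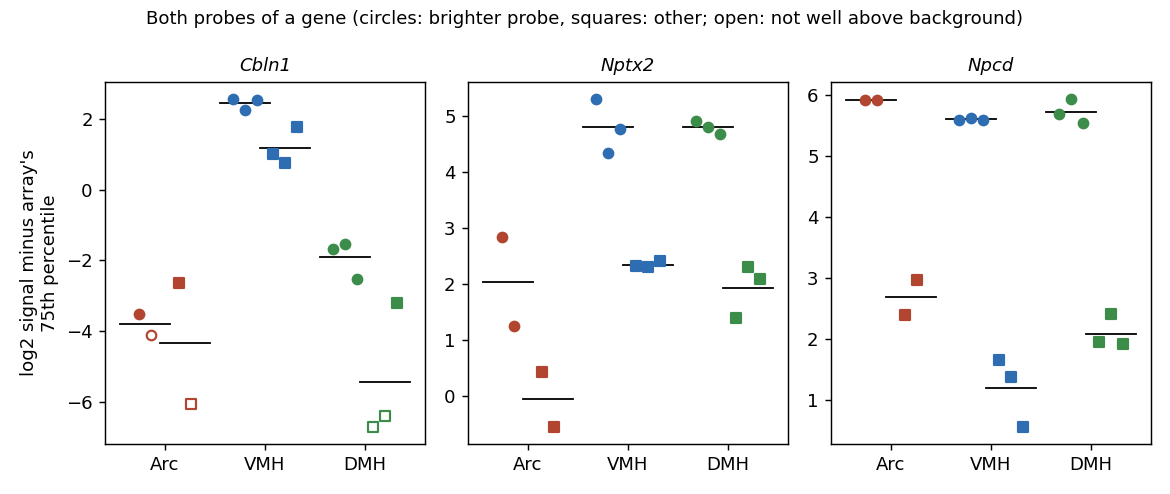
Levels of both probes of Cbln1, Nptx2 and Npcd on each array (log2 signal minus the array's 75th percentile), circles for the brighter probe, squares for the other, open where not above background, bars for means. The Cbln1 probes agree on VMH but not on Arc and DMH, both Nptx2 probes are lowest in Arc, and only the dimmer Npcd probe is lowest in VMH.

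C1ql2 separated all 3 nuclei, and it was the member with every DMH array below all others. C1ql2 is a secreted protein known from hippocampal mossy fibre synapses. Its probe (mm9, chr1:122238262-122238321) read 1.503, 0.72 and 1.12 in VMH, -0.26 and 0.12 in Arc, and -2.22, -1.78 and -1.79 in DMH. No nuclei overlapped and every array was above background. VMH minus DMH was 3.04 (SE 0.26), an 8.24-fold difference, and VMH minus Arc 1.19 (SE 0.29), 2.28-fold. DMH minus Arc was -1.86 (SE 0.29), or 3.62-fold lower in DMH. The order of the lower nuclei is thus Arc above DMH, opposite to that of the brighter Cbln1 probe.

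C1ql1, known from climbing fibre synapses of the cerebellum, overlapped between nuclei. Its probe (mm9, chr11:102801107-102801166) read -0.03 and -0.22 in Arc, 0.57, -0.11 and 0.26 in VMH, and -1.42, 0.00 and 0.05 in DMH. One DMH array was low and the others lay within the range of Arc and VMH. The pairwise differences ranged from -0.33 (SE 0.46) for DMH minus Arc to 0.70 (SE 0.41) for VMH minus DMH.

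C1ql3 was not measured in most samples. Its probe (mm9, chr2:12923549-12923608) read -5.65 and -6.15 in Arc, -6.12, -6.23 and -6.35 in VMH, and -4.47, -6.35 and -6.42 in DMH, and was well above background on the first DMH array alone. It therefore did not pass the filter, which needs every array of a nucleus, while Nptx1, measured on all VMH arrays, did. No fold is given for C1ql3.

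Proximal promoters of 3 of the 9 members were available in the RefSeq table (GRCm38.p6), each here as the 250 bases before the transcription start. Those of C1ql2 and Cbln4 are shown because both genes were highest in VMH, with motif matches on either strand in capitals:
C1ql2 (chr1:120340332-120340581, plus strand): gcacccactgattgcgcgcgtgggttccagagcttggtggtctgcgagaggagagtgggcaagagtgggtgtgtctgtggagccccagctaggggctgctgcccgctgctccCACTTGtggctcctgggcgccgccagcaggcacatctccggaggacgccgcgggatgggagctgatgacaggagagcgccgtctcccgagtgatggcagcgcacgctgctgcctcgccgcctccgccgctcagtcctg
Cbln4 (chr2:172043467-172043716, minus strand): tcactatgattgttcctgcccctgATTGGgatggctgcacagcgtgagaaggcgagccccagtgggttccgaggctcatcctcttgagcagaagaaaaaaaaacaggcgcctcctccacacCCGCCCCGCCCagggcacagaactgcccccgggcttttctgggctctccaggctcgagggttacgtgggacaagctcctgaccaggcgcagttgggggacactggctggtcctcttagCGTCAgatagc
In C1ql2 the capitals mark the letters CAAGTG, the core of an Nkx2-1 site, read on the opposite strand 138 bases before the start. In Cbln4 they mark CCAAT on the opposite strand, a pair of overlapping GGGCGG matches (GC box) on the opposite strand, and TGACG, a partial cyclic AMP response element, on the opposite strand. The C1ql3 window held CAAGTG once and GGGCGG at 2 places. CAAGTG occurred in 11.6% of 32851 such windows, CCAAT in 33.8%, GGGCGG in 32.7% and TGACG in 17.8%. TATAAA (12.4% of windows), the full TGACGTCA (1.55%) and CAAGGTCA, an Nr5a1 site (1.33%), were not among the letters of these 3 windows. The windows were rich in CpG, with 20 in C1ql2, 23 in C1ql3 and 11 in Cbln4 against a median of 6.

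Set side by side, 4 of the 7 members tested (Cbln1, Cbln4, Nptx1 and C1ql2) had every VMH array above every other array, where 5.48% of 27323 genes with complete values did. Every Arc array was below the others for 3 of 7 (Cbln1, Cbln4 and Nptx2), against 6.66% of genes, and every DMH array for 1 of 7 (C1ql2), against 5.67%. None of the 7 had every VMH array below the others, as 4.03% of genes did. Taken in pairs, VMH and Arc did not overlap for 5 of 7 members (35.0% of genes), VMH and DMH for 4 of 7 (21.7%) and DMH and Arc for 4 of 7 (33.4%), and no nuclei overlapped for 3 of 7 (4.83%). At an adjusted p under 0.05 (limma, Benjamini-Hochberg over all genes), 3 of 7 members were called higher in VMH than the mean of the others (C1ql2, Cbln1, Nptx1), 2 of 7 lower in Arc (Cbln1, Nptx2) and 1 of 7 lower in DMH (C1ql2). Over all genes 1.34%, 0.609% and 0.839% were called in VMH, Arc and DMH, and 0.872% higher in VMH, 0.416% lower in Arc and 0.474% lower in DMH. The members were chosen from these same contrasts, and Nptx1 passed the filter only through VMH, so nothing is read from their counts. The alternative fits reuse the arrays on which the members were chosen, so a call that held in them lends its member no support. Cbln1 in VMH passed in 17 of 17 alternatives and in Arc in 16 of 17, and C1ql2 in VMH in 16 of 18 and in DMH in 16 of 18. Nptx1 in VMH passed in 6 of 17, and among the 8 fits that left out an array only in that without DMH replicate 1. Nptx2 in Arc passed in 6 of 18, and among those 8 fits only in that without Arc replicate 1. C1ql2 was lost in VMH without VMH replicate 3 and in DMH without DMH replicate 1. The median difference of the 7 members was 1.38 in VMH, -1.12 in Arc and -0.51 in DMH, against 0.01, 0.04 and -0.04 over all genes.

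Between pairs of nuclei, Cbln1 and Nptx2 were called for VMH against Arc, where 0.977% of genes were, and Cbln1 and C1ql2 for VMH against DMH, where 1.23% were. Cbln1 passed in 17 of 17 alternatives in both and C1ql2 in 18 of 18, but Nptx2 in 6 of 18, and among the 8 fits that left out an array only in that without Arc replicate 1. None of the 7 was called for DMH against Arc in limma, where 0.416% of genes were called and 4560 genes had an unadjusted p under 0.05. Under the alternatives 0 to 2 of the 7 were called there: C1ql2 passed in 5 of 18 and Nptx2 in 4 of 18 (1 of them without Arc replicate 1). The 3 pairwise contrasts share samples, and their values are given beside each other only. Nothing is read from the counts of members here either.

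**Figure D3:**
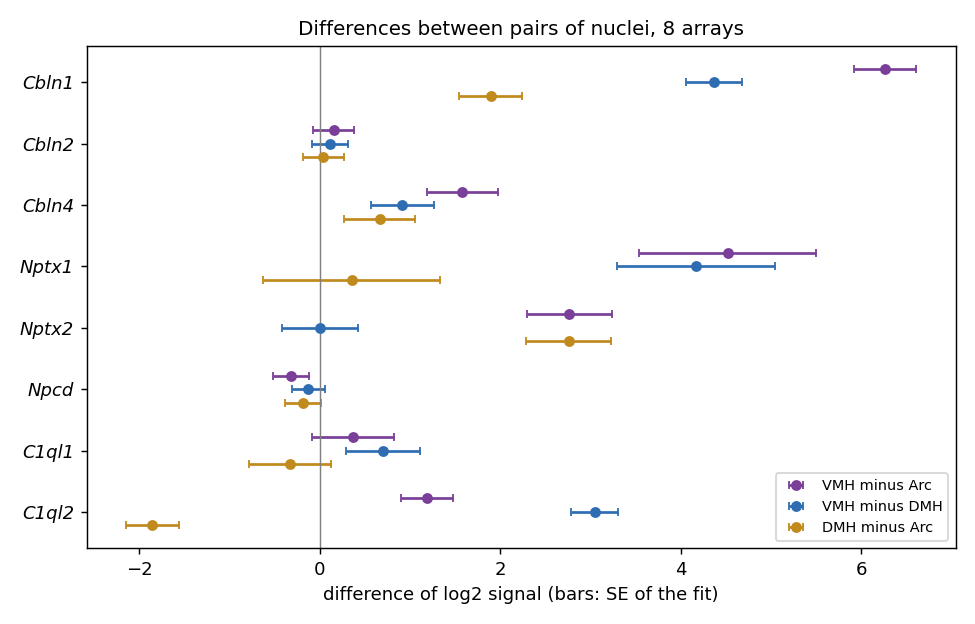
Differences of log2 signal between pairs of nuclei for the 7 members tested and for Npcd, from 8 arrays; points are the estimates and bars their SE. Cbln1 reaches 6.26 for VMH minus Arc, Nptx2 differs from Arc alike in VMH and DMH, and C1ql2 has opposite signs for VMH minus DMH (3.04) and DMH minus Arc (-1.86).

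Over the 8 arrays, which include the differences between nuclei, Cbln1 correlated with Nptx1 at r = 0.85 and with Cbln4 at r = 0.84, and Nptx1 with C1ql2 at r = 0.75. Nptx2 and C1ql2 correlated at r = -0.10. Nptx1 was above background on 0 of 2 Arc and 2 of 3 DMH arrays, and Cbln1 on 1 of 2 Arc arrays. Correlations with these genes, here and below, rest partly on such dim spots. For members spanning over 2 log2 units between nucleus means, the 3 most similar genes among 16321 others with a RefSeq symbol were as follows. For Cbln1 they were Camk1d, a calcium-dependent kinase (r = 0.992), Chst1, a sulfotransferase (r = 0.991), and Adcyap1, which encodes the neuropeptide PACAP (r = 0.986, and itself on the list of VMH markers). Adcyap1 averaged 3.91 in VMH, 0.34 in DMH and -0.71 in Arc. For Nptx1 they were Ak1 (r = 0.984), Habp4 (r = 0.983) and Dap3 (r = 0.981), whose means differed by less than 1 log2 unit between nuclei. For Nptx2 they were Klf16 (r = 0.996), Kcnip2, a potassium channel subunit (r = 0.985), and Smc1a (r = 0.984). For C1ql2 they were Hcrtr1, an orexin receptor (r = 0.984), Spock3 (r = 0.981) and Tcerg1l (r = 0.978), and Hcrtr1 averaged 2.30 in VMH, 1.64 in Arc and 0.67 in DMH. These are the highest of many correlations over 8 points that share their arrays, and are a description.

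The receptors and partners of cerebellins and C1q-like proteins lay between -0.73 and 1.05 in Arc and -1.07 and 0.82 in VMH, each taken against the average of the remaining nuclei. None of 13 genes tested of 13 listed (among them neurexins, Adgrb receptors, Dcc, Neo1 and kainate subunits) was called in any nucleus by limma. At an unadjusted p under 0.05 there were 2 in Arc, 4 in VMH and 2 in DMH, and the median differences were 0.01, 0.14 and -0.12. This list and those below were chosen with earlier results of these data known, so their counts are a description.

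Nrxn3, a neurexin, read 3.02 and 2.81 in Arc, 2.20, 1.67 and 1.96 in VMH, and 3.69, 2.83 and 2.80 in DMH. All VMH arrays were below the others, compared with the mean of the other nuclei (limma difference -1.07, SE 0.26, adjusted p = 0.123). Averaging all Nrxn3 probes instead of taking the brightest gave -1.67 with an adjusted p of 0.00532 in limma, so the call depends on the probe rule. Grik4, a kainate receptor subunit, read 0.81 and 0.09 in Arc, 1.38, 1.49 and 1.26 in VMH, and 0.87, 1.05 and 1.04 in DMH, with limma adjusted p = 0.198 in Arc and 0.216 in VMH. Adgrb3 (named Bai3 on the array), the receptor of C1q-like proteins, was 1.05 (SE 0.40) above the others in Arc with a limma adjusted p of 0.268, and was above background on 2 of 3 VMH arrays. Averaging its probes turned the direction (-0.47, limma adjusted p = 0.540), so no direction is given for it.

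**Figure D4:**
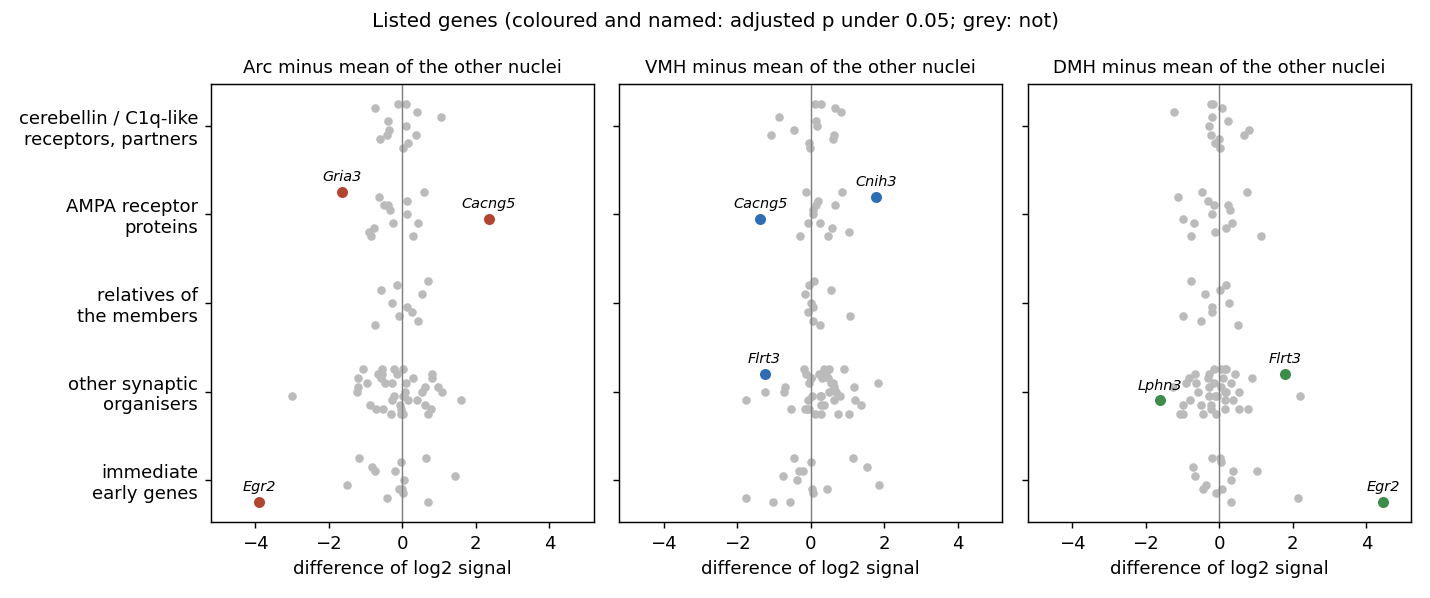
Difference of each nucleus from the mean of the other 2 for every tested gene of the 5 lists, in log2 units; coloured and named points passed an adjusted p of 0.05 in limma. The receptors and partners of cerebellins and C1q-like proteins, and the relatives of the members, hold no coloured point; Cacng5, Gria3, Cnih3, Flrt3, Lphn3 (Adgrl3) and Egr2 do in the other lists.

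AMPA receptor subunits and their auxiliary proteins, on which neuronal pentraxins act, held 3 called genes among 15 tested of 15 listed. Arc had 1 higher and 1 lower, VMH 1 higher and 1 lower, and DMH none (4 at an unadjusted p under 0.05 in limma). The medians were -0.34 in Arc, 0.19 in VMH and -0.15 in DMH. Cacng5, a transmembrane AMPA receptor regulatory protein, read 0.16 and 0.35 in Arc, -2.61, -2.09 and -2.01 in VMH, and -1.84, -2.39 and -1.70 in DMH. Arc stood clear of both others, by 2.36 (SE 0.26, limma adjusted p = 0.0146), a call lost with the replicate number as a block (adjusted p = 0.0593). It passed in each fit that left out 1 array; where that was an Arc array, the single Arc array was assumed to vary like the other groups, here and for every gene below. Cacng5 was also called lower in VMH than the mean of the others (-1.37, limma adjusted p = 0.0397). VMH and DMH did not differ beyond their spread, however (VMH minus DMH -0.26, SE 0.26, limma adjusted p = 0.709). The call in VMH therefore restates the high Arc level. With no filter on dim probes, or the replicate number or slide row as a block, it was lost (limma adjusted p 0.0664 to 0.0922). It was lost without any single array except DMH replicate 2 (limma adjusted p 0.0821 to 0.151 where a VMH or DMH array was left out).

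Gria3, an AMPA receptor subunit, read -1.16 and -0.91 in Arc, 0.65, 0.47 and 0.74 in VMH, and 0.89, 0.60 and 0.20 in DMH. It was lower in Arc (difference -1.63, SE 0.23, limma adjusted p = 0.0319) and did not overlap with the others, the same arrays in which Nptx2 was low. The call was lost without any VMH replicate or DMH replicate 1 or 2 (limma adjusted p 0.0511 to 0.0838). It was also lost without Arc replicate 1 or 2 (differences -1.50 and -1.75). No filter on dim probes (0.0526), the mean of all probes (0.0549) and array weights (0.0544) ended it too. So did the replicate number as a block (0.103). Cnih3, a cornichon protein that modulates AMPA receptors, read 0.69, 0.77 and 0.16 in VMH, -0.66 and -1.48 in Arc, and -1.69, -1.48 and -1.03 in DMH. Cnih3 was higher in VMH by 1.77 (SE 0.27, limma adjusted p = 0.0279). The call was lost without any VMH replicate or DMH replicate 1 or 2 (adjusted p 0.0593 to 0.127). It was also lost without Arc replicate 2 (difference 1.57) and with the replicate number as a block (limma adjusted p = 0.0978). The AMPA receptor subunits Gria1 and Gria2 were not called in any contrast.

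Relatives of the members, the other cerebellin, C1q-like, C1q and TNF-related and pentraxin genes, gave no call in limma. Of 15 listed genes 10 were tested, and Cbln3, C1qtnf2, C1qtnf6, C1qtnf9 and Crp did not pass the filter. At an unadjusted p under 0.05 there were 2 in Arc, 1 in VMH and 2 in DMH, with medians of 0.02, 0.06 and -0.19. C1ql4, the remaining C1q-like gene, read -0.48 and -0.67 in Arc, -1.14, -0.67 and -0.62 in VMH, and -1.12, -1.11 and -0.45 in DMH, which overlapped. Ptx4, a pentraxin, read -0.06, -0.20 and 0.09 in VMH, above the other arrays at -1.34 and -0.32 in Arc and -1.47, -1.73 and -1.07 in DMH, with a difference of 1.07 (SE 0.27, limma adjusted p = 0.139). The short pentraxin Apcs was -0.77 in DMH (SE 0.21, limma adjusted p = 0.165) and 0.69 in Arc (adjusted p = 0.228), C1qtnf1 0.54 in Arc (adjusted p = 0.230) and C1qtnf4 0.56 in VMH (adjusted p = 0.631).

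Other synaptic organisers, such as neuroligins, teneurins, latrophilins and their partners, were tested for 42 of 45 listed genes. None was called in Arc by limma (12 at an unadjusted p under 0.05), 1 was lower in VMH, and 1 was higher and 1 lower in DMH. The medians were -0.06, 0.29 and -0.12. Flrt3, a postsynaptic ligand of latrophilins, read 2.66, 2.35 and 2.49 in DMH, 0.87 and 1.01 in Arc, and 0.52, 0.25 and 0.64 in VMH. The 3 nuclei did not overlap. It was higher in DMH by 1.80 (SE 0.17, limma adjusted p = 0.00994; 0.0512 without DMH replicate 1), or 3.48-fold, and all 3 of its probes were highest in DMH. It was lower in VMH than the mean of the others (difference -1.25, limma adjusted p = 0.0190). That call was lost without any VMH replicate or DMH replicate 3, or with the replicate number as a block (adjusted p 0.0530 to 0.0908). VMH minus Arc was only -0.47 (SE 0.22, limma adjusted p = 0.380). On the further probes VMH averaged -0.86 against -1.38 in Arc, and -1.85 against -1.81, so VMH below Arc is not shown by all 3 probes.

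Adgrl3 (named Lphn3 on the array), the latrophilin that Flrt3 binds, ran the other way in DMH. It read -0.67, -0.83 and -0.95 in DMH, 0.40 and 0.65 in Arc, and 1.00, 1.53 and 0.67 in VMH. The DMH arrays lay below all others, with a difference of -1.61 (SE 0.23, limma adjusted p = 0.0305). That call was lost without VMH replicate 1 or 2 or any DMH replicate (adjusted p 0.0513 to 0.109). It was also lost without Arc replicate 1 or 2 (differences -1.67 and -1.55). Averaging its probes ended it too (-1.85, limma adjusted p = 0.122). So did the replicate number (0.0681) or the slide row (0.0730) as a block, and no filter on dim probes (0.0532). DMH was thus the nucleus with the highest level on each Flrt3 probe and the lowest on both Adgrl3 probes.

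Nlgn1, a neuroligin that binds neurexins, read -0.91, -0.89 and -0.77 in VMH, -1.42, -1.59 and -1.81 in DMH, and -2.04 and -2.83 in Arc. It was higher in VMH than in Arc by 1.58 (SE 0.27, limma adjusted p = 0.0488), passing in 6 of 18 alternatives. Tenm2, a teneurin and latrophilin ligand, was higher in VMH (2.34, 2.23 and 2.16) than in DMH (0.68, 0.87 and 0.95) by 1.41 (SE 0.24, limma adjusted p = 0.0388), passing in 9 of 18. Tenm3 read -5.30 and -2.43 in Arc, against -2.11, -0.73 and -1.16 in VMH and -1.09, 0.19 and -0.28 in DMH. The lower Arc spot was not above background, and Arc lay at least 5.05-fold below the others, which was not called (limma adjusted p = 0.132). It passed only without Arc replicate 2 (adjusted p = 0.0283), where that unmeasured spot stands alone for Arc, and nothing is read from it.

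Immediate early genes were listed because Nptx2 is induced by neuronal activity. Of 15 tested of 16 listed, 1 was called higher in DMH and lower in Arc, and none in VMH by limma (4 at an unadjusted p under 0.05). The medians were -0.10 in Arc, -0.20 in VMH and 0.04 in DMH. The called gene was Egr2, a zinc finger transcription factor, which read 1.42, 0.65 and 0.13 in DMH, -2.67, -2.71 and -2.49 in VMH, and -6.14 and -3.53 in Arc, where 1 of 2 arrays was above background. DMH lay above the others by at least 15.1-fold (limma difference 4.46, SE 0.56, adjusted p = 0.0211). That difference and its p-value use the unmeasured Arc spot as read. The call was lost without any VMH or DMH replicate or with the replicate number as a block (adjusted p 0.0511 to 0.0987). DMH was 10.2-fold above VMH, which was not called (VMH minus DMH -3.36, SE 0.63, limma adjusted p = 0.0558). Arc lay at least 6.99-fold below the others (limma difference -3.89, adjusted p = 0.0482). That call was lost without any VMH or DMH replicate or with the replicate number as a block (adjusted p 0.0800 to 0.130). It was also lost without Arc replicate 1 (difference -2.59). Without Arc replicate 2 the unmeasured spot stands alone for Arc, and nothing is read from that fit. VMH minus Arc was 2.21 (SE 0.70, limma adjusted p = 0.226) and was not called.

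Its relatives Egr3 and Egr4 pointed to another nucleus. Egr4 read 0.18, 0.09 and -0.11 in VMH, above every other array, with a difference of 1.52 (SE 0.31, limma adjusted p = 0.0677; 0.0347 without DMH replicate 2), and it passed in 3 of 18 alternatives. Egr3 read 1.15, -0.22 and 0.08 in VMH, likewise above all others, with a difference of 1.85 (SE 0.41, limma adjusted p = 0.0910). No listed immediate early gene was called in the pattern of Nptx2, low in Arc and level between VMH and DMH. With 2 Arc arrays, the lack of a call does not show that none had it. In Arc, 4 of the 15 tested had an unadjusted p under 0.05 in limma, in either direction.

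Across the 5 lists, 95 of 104 genes were tested. Arc had 1 called higher and 2 lower, VMH 1 higher and 2 lower, and DMH 2 higher and 1 lower, or 3 of 95 in each nucleus. Over all genes 0.609% were called in Arc, 1.34% in VMH and 0.839% in DMH, shares that also stand beside the counts of each list. The lists were chosen with earlier results of these data known, so nothing is read from their counts against these shares. The calls are not separate findings, as Cacng5, Flrt3 and Egr2 are each counted in 2 nuclei. The medians of all 95 were -0.09, 0.14 and -0.12 in Arc, VMH and DMH, against 0.04, 0.01 and -0.04 over all genes.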

How the data were processed

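The 8 arrays of pooled neurons carry 1 sample each, labelled in red (Cy5), on 1 slide from 1 scan. Agilent Feature Extraction 11.5.1.1 (named in the submitters' processing notes) produced the deposited red intensity of each spot, from which background had been subtracted and a spatial trend removed; the arrays were not scaled to each other. Its flags of detection, saturation and outliers are deposited as a score of 0 or 1. From them, log2 of the signal minus the array's 75th percentile over 59305 non-control spots was computed. Outlier spots were left out (no member's spot was saturated), spots of a probe averaged, probes kept that were well above background on all arrays of at least 1 nucleus (41500 of 55681), and the brightest probe taken for each of 27434 names. Of these, 27418 had a value in each nucleus.

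With limma 3.58.1 (R 4.3.3; lmFit, eBayes; 5 residual degrees of freedom) each nucleus was given its own mean over the 8 arrays, with Benjamini-Hochberg adjustment and a threshold of 0.05. Where a spot was an outlier, that gene was fitted without that array. The number of arrays limits the precision. The members and lists were chosen with earlier results of these data known. Named list genes are up to 4 called per list and nucleus, or the 2 with the smallest p (1 such gene is not reported here); Gria1, Gria2, C1ql4, Nlgn1 against Arc and Tenm2 were added after their values were seen. Names are those of the array (16366 of 27434 matched a RefSeq symbol of GRCm38.p6), and probe positions are in mm9, as deposited. Replicate numbers were checked for pairing: same-numbered arrays of different nuclei correlated at 0.0721 to 0.185 in their deviations, with 2 of 7 pairs over 0.1. All 7 were positive, and no different-numbered pairs were set beside them, so the check does not settle pairing. The labels tie no sample to an animal, and the arrays were taken as unpaired. Alternatives covered background correction, scaling, filter, probe rule, variance model, array weights, blocks and leaving out each array. The script was tested on simulated data. The deposited value table of the whole series, which runs in constant steps, was not used.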

Additional observations from a re-analysis of the deposited data

How the results depend on the processing

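No called difference of a listed gene or member changed sign under any alternative run; among the named listed genes not called, Adgrb3 in Arc did, with the mean of all probes. Counts called against the mean of the other nuclei were, for the 95 listed genes, 3 in each nucleus, and for the 7 members 2 in Arc, 3 in VMH and 1 in DMH. In Arc, listed genes fell to 1 with no filter on dim probes or with array weights, and ranged from 1 to 3 leaving out arrays; members were 1 with quantile normalization, no filter, only probes above background on all arrays, the mean of all probes, array weights or the slide row as a block, and 1 to 2 leaving out arrays. In VMH, listed genes were 7 with normexp, 5 with only probes above background on all arrays, 6 with the mean of all probes, 6 with trend and robust, 6 with array weights, and 0 to 4 leaving out arrays; members were 1 with only probes above background on all arrays, where Cbln1 and Nptx1 drop out and 5 are tested, and 1 to 3 leaving out arrays (1 without VMH replicate 3). In DMH, listed genes were 5 with trend and robust and 0 to 3 leaving out arrays (0 without DMH replicate 1); members were 2 with normexp and 0 to 1 leaving out arrays (0 without DMH replicate 1).

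With normexp the differences of Cbln1 and Nptx1 in VMH were 4.23 and 2.23 (5.31 and 4.34 as reported), and that of C1ql2 in DMH was -1.99 (-2.45 as reported). The Nptx2 difference in Arc ranged from -3.56 to -1.96 leaving out arrays. The cause of these shifts was not tested. The replicate number shared by nuclei is not a known pairing. With it as a replicate block, listed genes called were 0 in Arc, 0 in VMH and 1 in DMH, members 1, 1 and 0, and calls over all genes went from 167 to 40 in Arc, from 368 to 145 in VMH and from 230 to 62 in DMH, of which 36, 136 and 58 were shared. Signal over background limits Cbln1 in Arc, Nptx1 in Arc and DMH, and C1ql3 throughout.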
